A study of Mus musculus with 6 samples.

Results

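The clustered histone genes were described in polyadenylated RNA from testes of mice that lost the splicing factor SRSF1 in germ cells. The members were the protein-coding genes of the expression table with names beginning Hist1h, Hist2h, Hist3h or Hist4h. This name rule used no measured value and gave 67 of 54532 genes, which included 22046 protein-coding genes. There were 6 H1 genes, 18 H2A genes, 18 H2B genes, 12 H3 genes and 13 H4 genes. The Hist1 cluster on chromosome 13 held 54 of them, Hist2 on chromosome 3 held 10, Hist3 on chromosome 11 held 2 and Hist4 on chromosome 6 held 1.

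Whole testes were sampled at 5 days postpartum (dpp), with 3 biological replicates of each of 2 groups. The Ctrl group is labelled only as such, and its alleles are not given in the sources used here. The cKO group carries Vasa-Cre, which is active in germ cells, with a floxed and a deleted Srsf1 allele (Fl/del), according to the study. Somatic cells of these testes carry no active Cre. Read as an inherited genotype, Fl/del gives them a deleted Srsf1 allele as well, which the labels and the study do not spell out. RNA was captured on poly-T beads and sequenced in 150-base pairs, and levels are FPKM, fragments per kilobase of gene scaled to library size. FPKM is a level per annotated length, so values set side by side between genes also depend on the gene models and on how shared reads were counted.

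Histones package DNA: H2A, H2B, H3 and H4 form the nucleosome core, and H1 binds the linker DNA between nucleosomes. Most clustered histone genes are copied in S phase, have no introns, and give mRNAs that end after a conserved stem-loop instead of a poly(A) tail. The stem-loop binding protein SLBP and the U7 small nuclear ribonucleoprotein direct that cut. Some of these genes also give polyadenylated mRNAs, especially in cells that have left the cycle. A poly-T library therefore captures the tailed forms and only traces of the others. The male germ line also uses testis-enriched members, such as the H1 gene Hist1h1a and the later H1 gene Hist1h1t.

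The stem-loop that ends the tail-less form is shown for the 7 members with an exact match among the 9 tested members in which Ctrl and cKO samples did not overlap, as these lie on either side of the comparison below. Each is read 5′ to 3′ on the gene's strand from GENCODE M21 transcripts (GRCm38), and the capitals mark the 2 stem arms of 6 bases with the 4-base loop between them. The position given is that of the capitals.
Hist1h1c (chr13:23739512-23739527, + strand): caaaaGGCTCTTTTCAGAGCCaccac
Hist1h4i (chr13:22040966-22040981, - strand): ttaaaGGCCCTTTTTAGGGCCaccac
Hist3h2a (chr11:58955172-58955187, + strand): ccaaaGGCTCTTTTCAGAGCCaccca
Hist1h3d (chr13:23576244-23576259, + strand): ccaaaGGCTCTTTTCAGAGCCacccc
Hist1h3c (chr13:23745047-23745062, - strand): aaaaaGGCTCTTTTAAGAGCCaccta
Hist1h3a (chr13:23761890-23761905, - strand): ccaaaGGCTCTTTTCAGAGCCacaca
Hist1h2bj (chr13:22043638-22043653, + strand): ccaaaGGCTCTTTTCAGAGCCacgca

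All 7 matches lay in the 3′ UTR of a single-exon model. The annotation ran on for 840 bases beyond the loop in Hist1h1c, 330 in Hist1h4i, 1643 in Hist3h2a and 752 in Hist1h3d. It ran on for only 74 bases in Hist1h3c, 37 in Hist1h3a and 23 in Hist1h2bj. The motif searched was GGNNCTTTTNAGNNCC with complementary arms, on the sense strand only. It stood after the stop codon in 44 of the 67 members, and it was found in 49 of 21866 coding genes, or 0.224%. The commonest form, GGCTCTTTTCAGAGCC, was in 26 members of the H1, H2A, H2B and H3 classes. The form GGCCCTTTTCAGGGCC was in 7 members, all of them H4 genes. Hist1h1a had no exact match, in a model that ends 48 bases after the stop codon, and the Hist1h2ak model ends at its stop codon.

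The libraries held 15448191 to 18964743 reads in genes, recovered from FPKM and gene length. Srsf1 was 82.1, 89.1 and 88.4 FPKM in Ctrl and 45.1, 46.3 and 51.6 FPKM in cKO (log2 fold change -0.85, SE 0.087, limma adjusted p = 0.058). In these whole testes, fewer cells of a type and less RNA per cell cannot be told apart. The label's extraction text names retinas, but 6 photoreceptor genes reached at most 0.311 FPKM, against 257 to 569 FPKM in Ctrl for the Sertoli cell hormone gene Amh. The Ctrl 2 library stood apart, with 20 germ cell markers summing to 468 FPKM against 196 and 215 in Ctrl 1 and Ctrl 3. The same sum was 58.5, 102 and 73.5 FPKM in cKO. Of the 19 tested markers, 16 were lower in every cKO than in every Ctrl sample, against 12.8% of all tested genes. Values without Ctrl 2 are given where they bear on a named gene or sum.

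Few clustered histone genes had more than traces listed. Over all 6 samples, 2 members averaged 10 FPKM or more, 19 averaged 1 or more, and 30 had under 10 reads in every sample. No read was listed for 7 members, of which 6 lie in Hist2 and 1, Hist1h4b, in Hist1. All 5 members whose 50-base stretches are all found in another gene were among them, and how reads with several matches were counted is not stated in the sources used here. A listed 0 is therefore not a measure of low expression for these genes. The summed level of all 67 members was 108.0, 104.6 and 87.9 FPKM in Ctrl and 125.7, 100.5 and 122.2 FPKM in cKO. These groups overlapped, at 100.2 ± 10.8 and 116.1 ± 13.7 FPKM (SD, n = 3 each). A group of 4 genes, Hist1h1c, Hist1h2bc, Hist1h4i and Hist2h2be, made up 50.3% to 57.3% of that sum in Ctrl and 69.4% to 71.2% in cKO.

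Of the members, 27 averaged at least 0.5 FPKM and were tested. None passed an adjusted p of 0.05 in the limma fit across 16206 genes, where 0.0% of all genes did, and the members' adjusted p ranged from 0.058 to 0.936. The deleted gene Srsf1 did not pass in this fit either. The study, which used DESeq2 on counts, called genes in both directions at an adjusted p of at most 0.05. An absence of calls in this fit is therefore not an absence of changed genes. The log2 fold change was below 0 in 14 members and above 0 in 13, with a median of -0.07 against 0.0027 over all tested genes. An unadjusted p under 0.05 was reached by 7 members that were lower in cKO and by 4 that were higher, where 9.31% and 6.6% of all tested genes reached it. Fitted with limma to protein-coding genes only, 4 members passed the adjusted threshold as lower (1.33% of all did) and 1 as higher (0.28%). Those were Hist1h1a, Hist1h3c, Hist1h2ak and Hist1h3a on the low side and Hist1h1c on the high side. Hist1h2ak and Hist1h1a reached the minimum level only through their Ctrl samples, so they had to be lower in cKO. Their calls carry no weight for the members as a set. Hist1h2bk and Hist1h2bp also reached it only through Ctrl samples, and Hist1h4j only through cKO samples. Hist1h2ak, Hist1h1a and Hist1h2bk are among the 7 members lower at an unadjusted p under 0.05. With limma voom on recovered reads, 1 member passed as higher, where 0.136% of all genes did, and none as lower, where 0.376% did.

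The 3 cKO samples all lay below the 3 Ctrl samples for 5 tested members, as was so for 12.8% of all tested genes. They all lay above for 4 members, against 10.3% of all genes, and overlapped for 18. On the TPM scale 6 members were lower and 3 higher, because Hist1h3d then overlapped and Hist1h2bk became lower in every cKO sample. The shares over all tested genes were not counted on the TPM scale. The members that were lower were Hist1h1a, Hist1h3c, Hist1h3a, Hist1h2ak and Hist1h2bj. For Hist1h1a and Hist1h2ak, and for Hist1h2bk on the TPM scale, the minimum level had fixed that direction. Those that were higher were Hist1h1c, Hist1h4i, Hist3h2a and Hist1h3d.

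**Figure D1:**
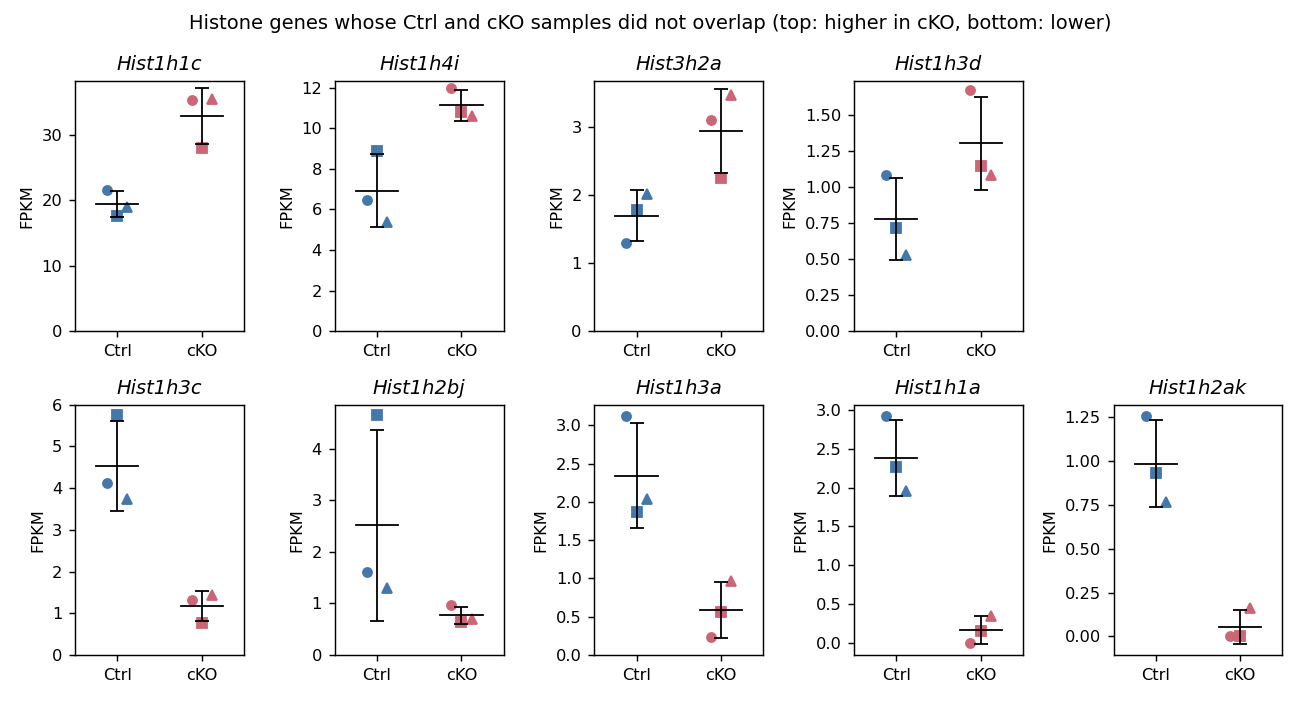
FPKM (vertical axis, from 0 or just below it) of the 9 tested histone genes in which no Ctrl sample overlapped a cKO sample. Circles, squares and triangles are replicates 1, 2 and 3, and black lines are the mean ± SD of 3 samples. Hist1h1c rests on levels of 17.6 to 35.4 FPKM, and Hist1h2ak on levels of at most 1.26 FPKM.

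The linker histone genes lay on opposite sides of Ctrl. Hist1h1c, which encodes the widely expressed linker histone H1.2, was 21.5, 17.6 and 19.0 FPKM in Ctrl and 35.3, 27.9 and 35.4 FPKM in cKO. All cKO samples lay above all Ctrl samples, with means of 19.4 ± 1.99 and 32.9 ± 4.29 FPKM (SD, n = 3 each). The log2 fold change was 0.73 with SE 0.12, at limma adjusted p = 0.093, or 0.030 over protein-coding genes only. These values rest on 492 to 867 reads a sample, and only 8.5% of the 50-base stretches of this gene occur in another gene.

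Hist1h1a, which encodes the linker histone H1.1, largely restricted to a few tissues such as testis and thymus, was 2.92, 2.27 and 1.95 FPKM in Ctrl. In cKO it was 0, 0.162 and 0.349 FPKM, so that each cKO sample lay far below the lowest Ctrl sample. The reads were 91 in all Ctrl samples together and 6 in all cKO samples together. On the log2(FPKM + 1) scale the change was -1.53 with SE 0.17, at limma adjusted p = 0.058, or 0.016 over protein-coding genes only. The size depends on the scale for so low a gene, at -3.43 with a pseudocount of 0.1 and -3.98 with limma voom. None of its 50-base stretches occurs in another gene. Without Ctrl 2 the change was -1.55. The germ cell marker sum was also lower in every cKO sample, and its part in the level of Hist1h1a was not tested.

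The remaining H1 genes were low. Hist1h1t, the linker histone gene of later spermatocytes, had 4 reads in Ctrl and 5 in cKO, so nothing could be compared at this depth. The 6 H1 genes summed to 25.3, 20.4 and 22.4 FPKM in Ctrl and 36.1, 28.8 and 36.6 FPKM in cKO. With Hist1h1c left out, the other 5 summed to 3.84, 2.81 and 3.38 FPKM in Ctrl and 0.772, 0.897 and 1.14 FPKM in cKO. The class total was thus higher in every cKO sample, and the total without its leading gene was lower in every cKO sample.

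The 300 bases around the starts of these H1 genes are shown because the levels of Hist1h1c and Hist1h1a lay on opposite sides of Ctrl. They run from 250 bases before the start to 50 bases after it, from RefSeq (GRCm38.p6), where 62 of the 67 members matched. Capitals mark matches to 3 motifs, each searched on both strands. One is the box spelled CCAAT. Another is the start-site motif of many promoters, searched as TATAAA. The last is the H1 box of linker histone genes, searched as AAACACA. A match only describes letters.
Hist1h1c (chr13:23738557-23738856, + strand): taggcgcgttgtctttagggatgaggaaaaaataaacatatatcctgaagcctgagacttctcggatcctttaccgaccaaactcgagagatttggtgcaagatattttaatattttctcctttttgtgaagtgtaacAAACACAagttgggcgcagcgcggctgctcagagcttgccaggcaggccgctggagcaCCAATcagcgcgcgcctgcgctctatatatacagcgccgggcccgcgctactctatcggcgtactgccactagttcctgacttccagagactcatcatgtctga
Hist1h1a (chr13:23763418-23763717, + strand): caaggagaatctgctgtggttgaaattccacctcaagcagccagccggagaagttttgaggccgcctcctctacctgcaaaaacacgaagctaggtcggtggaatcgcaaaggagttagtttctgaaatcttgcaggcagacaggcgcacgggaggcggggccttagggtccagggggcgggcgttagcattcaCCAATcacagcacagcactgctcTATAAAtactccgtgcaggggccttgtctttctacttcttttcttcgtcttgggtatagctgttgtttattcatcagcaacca

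The H1 box letters stood in 5 of the 6 H1 promoters, and in 7.19% of 32817 promoters of the same length. The Hist1h1a window was the H1 promoter without these letters. CCAAT was in 53 of the 62 member promoters against 37.39% of all, and in 3 of 12 H4 promoters against all 10 H3 promoters. TATAAA was in 35 of 62 against 13.62%. Some H2A and H2B neighbours on opposite strands, such as Hist1h2bl and Hist1h2ai, have overlapping windows. Boxes there were counted for both genes, so the 62 windows are not all separate.

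Among H3 genes, Hist1h3c and Hist1h3a were lower in every cKO sample. Hist1h3c, an S-phase gene for a core H3, was 4.12, 5.75 and 3.73 FPKM in Ctrl and 1.31, 0.760 and 1.44 FPKM in cKO. The lowest Ctrl sample was well above the highest cKO sample, and the log2 fold change was -1.35 with SE 0.18 (limma adjusted p = 0.066, or 0.019 over protein-coding genes only). Without Ctrl 2 it was -1.20.

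Hist1h3a, which lies next to Hist1h1a with 1279 bases between them, was 3.12, 1.87 and 2.03 FPKM in Ctrl and 0.238, 0.561 and 0.970 FPKM in cKO. The cKO samples were again all below, at a log2 fold change of -1.08 with SE 0.22 (limma adjusted p = 0.107, or 0.040 over protein-coding genes only). With limma voom it was -2.01. Of their 50-base stretches, 47.0% in Hist1h3c and 49.5% in Hist1h3a occur in another gene, so reads may have been split between copies. Hist1h3h was 1.65, 3.19 and 2.79 FPKM in Ctrl and 0.773, 1.75 and 0.787 FPKM in cKO. Its groups overlapped, because 1 cKO sample lay above the lowest Ctrl sample.

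Hist1h3d lay on the other side, at 1.09, 0.715 and 0.531 FPKM in Ctrl and 1.68, 1.15 and 1.09 FPKM in cKO. Its highest Ctrl and lowest cKO samples were equal at 3 significant digits, and the log2 fold change of 0.38 had an SE of 0.17 (limma adjusted p = 0.334). It was 0.77 with limma voom. The 12 H3 genes summed to 12.5, 15.4 and 13.4 FPKM in Ctrl and 6.43, 9.07 and 7.47 FPKM in cKO. Every cKO sum lay below every Ctrl sum, at 55.7% of the Ctrl mean, or 59.2% without Ctrl 2.

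Among H4 genes, Hist1h4i alone of those tested was higher in every cKO sample. It was 6.46, 8.89 and 5.39 FPKM in Ctrl and 12.0, 10.8 and 10.6 FPKM in cKO, with no overlap. Its log2 fold change was 0.64 with SE 0.16 (limma adjusted p = 0.156), or 0.81 without Ctrl 2. Hist1h4k was 3.37, 2.19 and 1.16 FPKM in Ctrl and 3.67, 3.26 and 2.90 FPKM in cKO, and its groups overlapped. The 13 H4 genes summed to 10.6 to 15.03 FPKM in Ctrl and 16.4 to 19.96 FPKM in cKO, or 135.4% of the Ctrl mean. The higher H4 sum rests on Hist1h4i, since without it the other 12 H4 genes overlapped, at 6.46 ± 1.43 and 6.99 ± 1.23 FPKM (SD, n = 3 each).

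The H2B class had the highest sum, and its groups overlapped. Hist1h2bc was 26.6, 18.8 and 18.7 FPKM in Ctrl and 32.6, 22.7 and 34.2 FPKM in cKO. The lowest cKO sample fell inside the Ctrl range, and the log2 fold change was 0.46 with SE 0.19 (limma adjusted p = 0.308). Its GENCODE model is spliced, unlike that of a typical clustered histone gene, with exon 1 at chr13:23684199-23684621 and exon 2 at chr13:23692176-23692908 on the + strand.

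Hist2h2be, with an annotated 3′ UTR of 2192 bases, was 7.33, 7.36 and 5.50 FPKM in Ctrl and 8.10, 8.32 and 6.74 FPKM in cKO. Hist1h2bg was 3.10, 1.53 and 2.24 FPKM in Ctrl and 4.11, 1.65 and 3.25 FPKM in cKO. Both overlapped between groups. Hist1h2bj was 1.60, 4.65 and 1.30 FPKM in Ctrl and 0.961, 0.647 and 0.699 FPKM in cKO. Its cKO samples all lay below, at a log2 fold change of -0.87 (limma adjusted p = 0.269, or -1.46 with limma voom), but the Ctrl mean was carried by Ctrl 2, without which the change was -0.47. The testis-enriched Hist1h2ba, which encodes TH2B, had 2 reads, both in Ctrl 2, and 0 in cKO. The 18 H2B genes summed to 39.1 ± 5.64 FPKM in Ctrl and 47.2 ± 7.77 FPKM in cKO (SD, n = 3 each), with overlap.

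H2A genes shared the most sequence, with a median of 73.0% of a gene's 50-base stretches found in another gene. Hist3h2a was 1.30, 1.79 and 2.02 FPKM in Ctrl and 3.11, 2.26 and 3.47 FPKM in cKO. Its cKO samples all lay above, at a log2 fold change of 0.54 with SE 0.16 (limma adjusted p = 0.202). The gene overlaps Trim17 on its own strand and Gm44313 on the other, and reads of these cannot be told apart from its own with certainty. Its neighbour Hist3h2ba, an H2B gene, was 1.01, 1.45 and 0.491 FPKM in Ctrl and 3.11, 1.17 and 2.11 FPKM in cKO, with 1 cKO sample inside the Ctrl range.

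Hist1h2ak was 1.26, 0.935 and 0.767 FPKM in Ctrl and 0, 0 and 0.165 FPKM in cKO. That is 20 reads in all Ctrl samples and 1 in all cKO samples, with a limma adjusted p of 0.1001, or 0.025 over protein-coding genes only. Its log2 fold change was -0.91, or -3.18 with limma voom. It overlaps Gm44454 on the opposite strand, and whether the counting used strand is not stated in the sources used here. Hist1h2ao was 3.35, 5.14 and 1.00 FPKM in Ctrl and 1.59, 1.62 and 0.944 FPKM in cKO, and the groups overlapped. Without Ctrl 2 its log2 fold change was -0.32, in place of -0.67. The testis-enriched Hist1h2aa, which encodes TH2A, had 4 reads in Ctrl and 2 in cKO. The 18 H2A genes summed to 11.2 ± 3.90 FPKM in Ctrl and 9.31 ± 1.48 FPKM in cKO (SD, n = 3 each), with overlap. This was 83.0% of the Ctrl mean, and 101.9% without Ctrl 2.

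**Figure D2:**
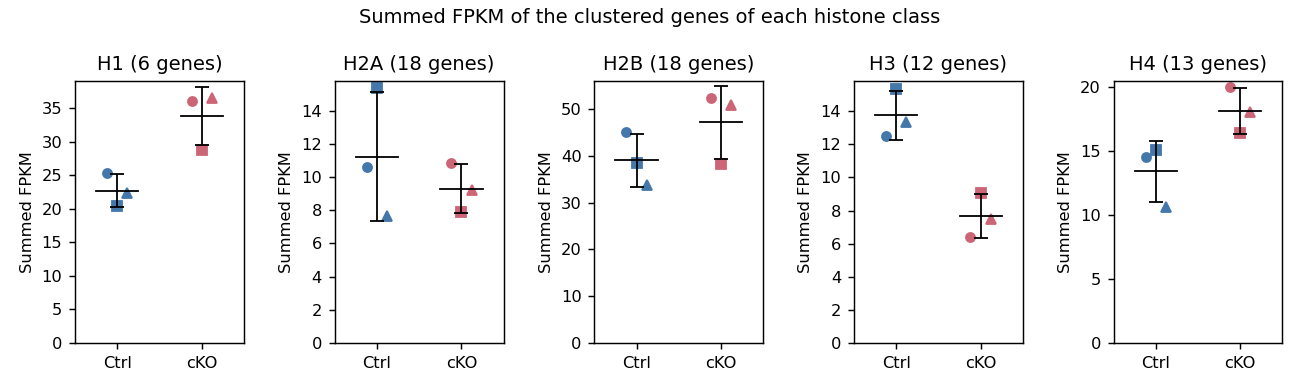
Summed FPKM (vertical axis, from 0) of the clustered genes in each histone class, by group. Circles, squares and triangles are replicates 1, 2 and 3, and black lines are the mean ± SD of 3 samples. H1 and H4 sums were higher and H3 sums lower in every cKO sample, and H2A and H2B sums overlapped.

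The same genes were then ordered by the annotated end of their mRNA, which the name rule did not use. A 3′ UTR of at least 180 bases was called long, a cut chosen after the values were seen. The nearest members were Hist1h2ae with 199 bases and Hist1h4a with 154. This gave 26 members with a long 3′ UTR and 41 with a short one or none. Some models of the short group, such as those of Hist1h2ak, Hist1h3h and Hist1h4k, end at the stop codon. For these the annotation does not show where the mRNA ends.

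The long group summed to 74.5, 62.7 and 59.2 FPKM in Ctrl and 106.6, 80.1 and 102.7 FPKM in cKO. The short group summed to 33.5, 41.9 and 28.6 FPKM in Ctrl and 19.1, 20.4 and 19.5 FPKM in cKO. Neither overlapped between groups. The long group stood at 147.3% and the short group at 56.7% of its Ctrl mean, and without Ctrl 2 at 144.2% and 63.3%. These sums include every member, whether tested or not.

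Leaving out the 2 highest members of the long group, Hist1h1c and Hist1h2bc, the other 24 summed to 24.8 ± 2.84 FPKM in Ctrl and 33.7 ± 4.63 FPKM in cKO (SD, n = 3 each), still without overlap. The 23 short members that overlap no other gene summed to 26.8 ± 2.77 and 14.8 ± 0.688 FPKM (SD, n = 3 each). With a cut of 300 bases in place of 180, the long group was at 148.1% and the short group at 66.4% of Ctrl.

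Of the tested members, 9 of 10 in the long group had a log2 fold change above 0, with a median of 0.42. In the short group 13 of 17 were below 0, with a median of -0.37. Of the tested members, all 4 that were higher in every cKO sample belonged to the long group, and all 5 that were lower to the short group. Among untested members this did not hold: Hist1h4d and Hist1h4c, with 3′ UTRs of 822 and 503 bases, were lower in every cKO sample. A member whose 1 high group carried it past the minimum level had to differ, so these counts describe the tested members only. The groups also differed in shared sequence, with a median of 24.7% of 50-base stretches found in another gene for long and 67.1% for short members.

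**Figure D3:**
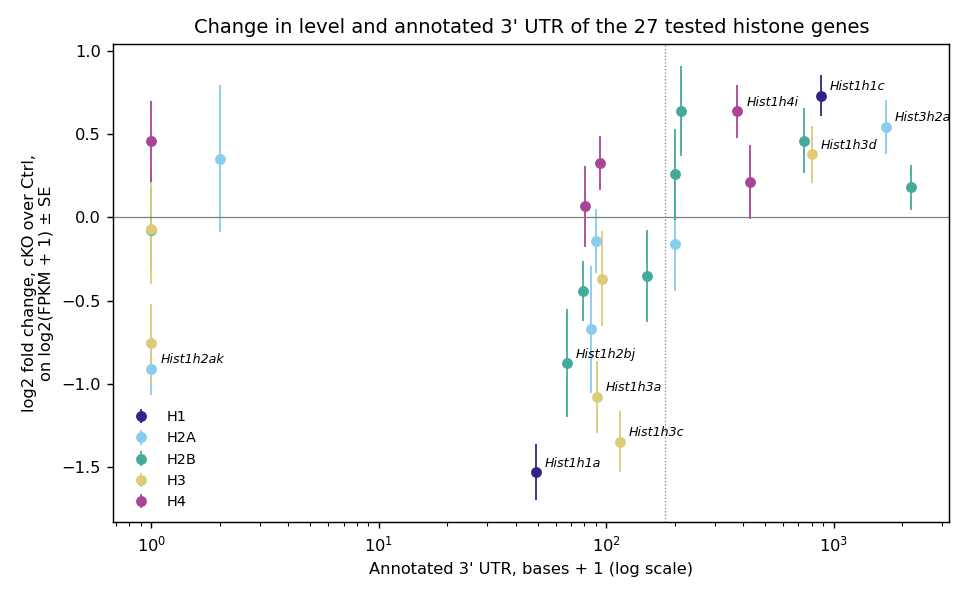
Log2 fold change of cKO over Ctrl on the log2(FPKM + 1) scale (vertical axis, ± SE) against the annotated 3′ UTR in bases plus 1 (horizontal axis, log scale) for the 27 tested members, coloured by class. The dotted line is the 180-base cut, and names mark members whose groups did not overlap: 4 higher on its right and 5 lower on its left.

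Across samples the short group and the germ cell marker sum had the same order except for Ctrl 1 and Ctrl 3. Ctrl 2 was highest in both, and cKO 2, cKO 3 and cKO 1 followed from high to low below all Ctrl samples. These cKO sums of the short group lay close together, at 20.4, 19.5 and 19.1 FPKM. With the 300-base cut their order was reversed, at 23.7, 26.2 and 28.6 FPKM in cKO 2, cKO 3 and cKO 1. On the TPM scale cKO 3 was lowest, so the order among cKO samples carries no weight. In the short group Ctrl 3 was below Ctrl 1, at 28.6 against 33.5 FPKM, and in the marker sum above it, at 215 against 196 FPKM. Of 20 tested S-phase genes, which mark replicating cells, 9 were lower in every cKO sample, against 12.8% of all tested genes, and none higher. In limma 0 passed the adjusted threshold, and 7 reached an unadjusted p under 0.05, all lower, against 9.31% of all tested genes. The median log2 fold change of the 20 was -0.20. Their sums were 620 to 679 FPKM in Ctrl and 478 to 611 FPKM in cKO. The part of germ cell number or of S-phase cells in the histone levels was not tested.

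**Figure D4:**
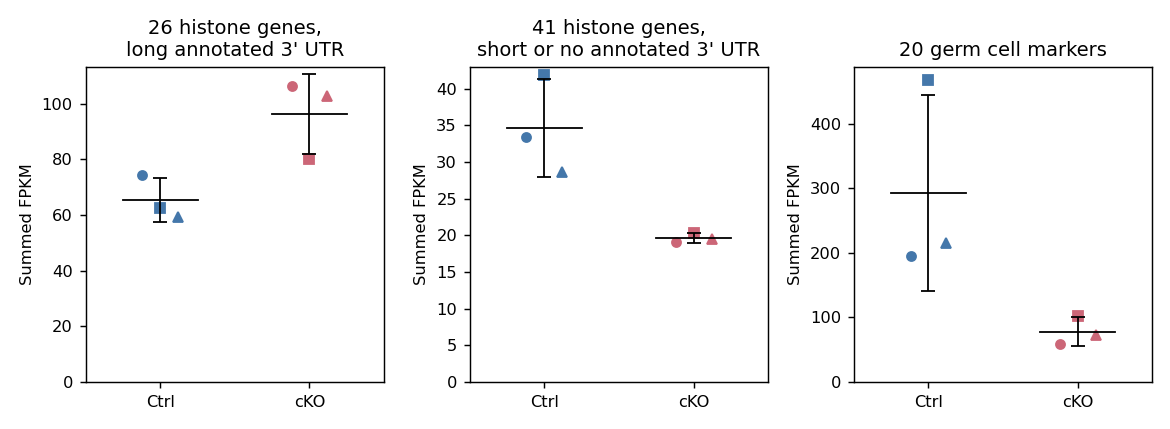
Summed FPKM (vertical axes, from 0) of the 26 members with a long and the 41 with a short or no annotated 3′ UTR, beside the sum of 20 germ cell markers. Circles, squares and triangles are replicates 1, 2 and 3, and black lines are the mean ± SD of 3 samples. The long group was higher and the other sums were lower in every cKO sample, and Ctrl 2 is the highest point of the last 2 panels.

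Close neighbours in a cluster did not always lie on the same side. Hist1h1c (chr13:23738808-23740367) and Hist1h3c (chr13:23744973-23745602) have 4605 bases between them, and the first was higher and the second lower in every cKO sample. Between Hist1h3d, higher, and Hist1h4d, lower in every cKO sample, lie 4586 bases. Hist1h3d was higher only by a near tie of its closest samples, and its groups overlapped on the TPM scale. Hist1h4d was under the minimum level, with 35 reads in Ctrl and 14 in cKO. Hist1h3a and Hist1h1a, by contrast, are adjacent and were both lower. These pairs were picked after their values were seen.

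The other 40 members were untested, none above 0.974 FPKM in any sample, and 33 of them had at least 1 read. Among those, Hist1h4d and Hist1h4c were lower and Hist1h2be higher in every cKO sample. The share without overlap over all untested genes was not counted, so these names are no result about the members. Hist1h4c had 25 reads in Ctrl and 7 in cKO, and Hist1h2be 41 and 93. Hist1h2be overlaps Hist1h1e and Gm11398 on its own strand.

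Genes of histone mRNA 3′ end processing and decay were examined as the rest of the pathway. Their list also held Npat, a transcription coactivator of histone genes. Of 17 tested, 0 passed the adjusted threshold, 5 reached an unadjusted p under 0.05, all lower, and 8 were lower and 1 higher in every cKO sample. Of all tested genes 9.31% were lower at that p, and 12.8% were lower and 10.3% higher without overlap. Npat was among the 5 at that p and among the 8 lower without overlap. Slbp, whose protein binds the stem-loop, was 26.3 ± 2.03 FPKM in Ctrl and 20.8 ± 2.60 FPKM in cKO (SD, n = 3 each, log2 fold change -0.33, limma adjusted p = 0.234). Lsm10, of the U7 particle, was 20.5 ± 0.833 and 18.0 ± 1.03 FPKM, lower in every cKO sample, with a log2 fold change of -0.18 (limma adjusted p = 0.329).

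Lsm11, its partner in that particle, overlapped at 3.02 ± 0.331 and 2.78 ± 0.334 FPKM (SD, n = 3 each). Zfp473, a zinc finger protein of the same machinery, was under the minimum level at 0.289 and 0.223 FPKM. The exosome ribonuclease gene Exosc10 was 25.88 ± 2.998 and 20.5 ± 0.819 FPKM, and the endonuclease gene Cpsf3, which makes the cut, was 19.1 ± 1.27 and 15.1 ± 1.80 FPKM. Both were lower in every cKO sample. The median log2 fold change of the tested genes was -0.16.

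RNAs that end without a poly(A) tail but are not histone mRNAs were set beside the members as a measure of how much untailed RNA the libraries held. Only 2 of the 9 found were tested, Rn7sk and Terc, and both overlapped between groups. The 9 summed to 7.14 to 8.97 FPKM in Ctrl and 5.97 to 13.3 FPKM in cKO.

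Variant histones that the name rule left out, mostly replication-independent with tailed mRNAs, were far higher in sum than the clustered genes and overlapped throughout. H2afx among them also gives a stem-loop mRNA. Some single variants, such as Cenpa at 20.3 ± 2.56 FPKM in Ctrl, were no higher than Hist1h2bc. All 11 were tested in limma, 0 passed the adjusted threshold, 0 reached an unadjusted p under 0.05, and their median log2 fold change was 0.03. They summed to 1364 to 1544 FPKM in Ctrl and 1403 to 1758 FPKM in cKO. H1f0, the linker variant of resting cells, was 213.9 ± 21.5 and 229.6 ± 23.7 FPKM (SD, n = 3 each), in which the groups overlapped as they did not for Hist1h1c.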

How the data were processed

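Per the labels and the study's methods, the authors aligned reads with HISAT2 2.0.5 to mm10, counted them per gene with featureCounts and deposited FPKM from counts and gene length. Settings for multi-mapping reads and strand are not stated in the sources used here. Depth was recovered from FPKM steps: all products of FPKM and length were whole reads within 0.01. A count of 3 reads in a 1-kb gene equals 0.158 to 0.194 FPKM.

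The 3 cKO and 3 Ctrl samples were grouped by their labels. The test was limma 3.58.1 (R 4.3.3) on log2(FPKM + 1), with a trend, for 16206 genes averaging at least 0.5 FPKM, with Benjamini-Hochberg adjustment. Folds on this scale understate changes of low genes. P-values are two-sided. The fit was tested on simulated data. Alternatives were another pseudocount, other filters, TPM, limma voom on the recovered reads, a fit to protein-coding genes alone, no trend, a replicate block and leaving out each sample.

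Members and gene lists were chosen with earlier results of these data known. Values per sample are given for tested members whose groups did not overlap, for the 10 highest members, and for Hist1h1a, Hist1h1t, Hist1h2aa and Hist1h2ba; members named otherwise were picked after their values were seen. From other lists, Slbp, Lsm10, Lsm11 and Zfp473 and up to 4 genes without overlap at the smallest p were eligible. All 67 members matched GENCODE M21 by identifier and coordinates. Sums over genes have no test.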

Additional observations from a re-analysis of the deposited data

How the results depend on the processing

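Of the 15 tested members named by the rule, none reversed under the alternatives that gave it a value (Hist1h2ak had none at 1 FPKM). Median log2 fold change of members was 0.26 for genes averaging at least 1 FPKM. It ranged from -0.035 to 0.13 leaving out single samples, and the 0.13 was without cKO 2. Members passing were 4 lower and 1 higher over protein-coding genes only, 1 higher with limma voom and 1 higher with the replicate block, where 0.518% of all genes passed as lower and 0.0864% as higher. Samples with the same replicate number had weakly correlated deviations (0.066, 0.016 and 0.088). Samples with different numbers were not compared, so whether the numbers pair the samples was not settled. Srsf1 passed with TPM (-0.86), protein-coding genes (-0.85), limma voom (-0.86) and the replicate block (-0.85). Members higher without overlap numbered 4 to 8 leaving out single samples: 7 without Ctrl 1, 6 without Ctrl 2 and 8 without cKO 2. Members lower without overlap numbered 6 to 7. With all samples 4 were higher and 5 lower. Fewer samples need to separate when 1 is left out, and the share over all genes was not counted there. H2A sums were 71.6% to 101.9% of Ctrl, with 101.9% without Ctrl 2. TPM kept the direction of every class sum. Low counts limit many members, 30 of them under 10 reads in every sample, and 12 of 27 tested members share over 50% of their 50-base stretches with another gene. The causes were not tested.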

Other observations

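Histone chaperones, which carry new histones to DNA, were another group near the members. None of the 11 tested passed the adjusted threshold in limma, and 4 were lower in every cKO sample, each at an unadjusted p under 0.05. Of all tested genes, 12.8% were lower without overlap and 9.31% were lower at that p. Asf1b, a chaperone of H3 and H4, was 14.0 ± 2.77 FPKM in Ctrl and 9.15 ± 1.44 FPKM in cKO. Chaf1b, of the CAF-1 complex, was 10.1 ± 1.02 and 7.45 ± 1.04 FPKM. Nasp, a carrier of H3 and H4, was 48.4 ± 8.62 and 36.3 ± 3.46 FPKM, and Supt16, of the FACT complex, was 39.1 ± 6.64 and 29.2 ± 2.70 FPKM (SD, n = 3 each).

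The table lists 3 further clustered histone names that are pseudogenes. Hist1h2al had 47 reads in Ctrl 2 and 30 in cKO 3, and 0 in the other 4 samples. Hist1h2aj had 9 reads in Ctrl and 7 in cKO, and Hist3h2bb-ps 2 and 11.

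Leydig cell markers summed to 433 to 629 FPKM in Ctrl and 663 to 755 FPKM in cKO, endothelial markers to 42.9 to 53.9 and 57.5 to 63.5 FPKM, and peritubular myoid markers to 521 to 533 and 328 to 511 FPKM. Sertoli cell sums were 833 to 1256 and 1174 to 1441 FPKM, macrophage sums 89.2 to 123.8 and 108.3 to 179.7 FPKM, and red cell sums 439 to 698 and 527 to 1481 FPKM, all with overlap. Their part in the histone levels was not tested.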
